A study of Glycine max with 6 samples.

Results

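A set of 4 regulators of the cell cycle and of cell growth was followed in soybean nodules: a MYB3R-1-like factor (Glyma.04G080600), a pair of scarecrow-like factors of the SCL28 type (Glyma.17G131200 and Glyma.05G049300) and cyclin-dependent kinase inhibitor 1;2 (Glyma.01G185400). They are 4 of the 39712 genes listed in at least 1 library and of the 31181 genes tested. They were chosen by name, with their difference between P treatments already known, so their values at low against high P are a description: no p-value is given for them, and the number of them past a threshold stands only beside the share of all genes. The names come from protein matches in the study's table of differing genes, since the deposited values carry gene IDs only.

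Soybean of the genotype YC03-3 was inoculated with the rhizobium strain USDA110 and grown in nutrient solution, and nodules were taken from plants at low P (LP, 25 μM KH2PO4) and at high P (HP, 500 μM KH2PO4). The study's methods state these concentrations in μM, whereas the sample labels state the same figures in mM. Nodules over 3 mm were collected on day 25, and each of the 3 LP and 3 HP libraries was made from nodules of 2 plants pooled. A size limit of this kind samples the larger nodules of either treatment, and whole nodules hold infected, uninfected, cortical and vascular cells together.

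A plant cell passes from DNA replication to division through cyclins that activate cyclin-dependent kinases (CDKs). In Arabidopsis and tobacco, MYB3R factors bind the promoters of genes needed at the G2/M transition, such as mitotic cyclins and cytokinesis proteins, and act there as activators or repressors. In Arabidopsis, SCL28 is a GRAS factor that acts with MYB3R factors at G2/M and influences cell size, while inhibitors of the Kip-related protein class bind cyclin-CDK complexes and hold back their activity. Soybean forms determinate nodules, in which cell division is largely early and later growth comes mostly from cell enlargement.

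The deposited values are FPKM, that is fragment numbers divided by gene model length and by the library total. The totals behind them, recovered from the values themselves, lay between 17716117 and 18909026 fragments per library. Log2 values of libraries correlated across genes at 0.966 to 0.977 within a treatment and at 0.911 to 0.936 between treatments. Markers of infected, uninfected and endodermal cells had no described gene at hand, so these cells were not checked here. A single vascular marker is given beside the cell division genes. A limma fit over all genes called a gene when its adjusted p did not exceed 0.05 and the levels differed by a factor of 2 or more, which gave 2411 genes, 1041 higher and 1370 lower at LP. This split depended on scaling, with 1404 higher and 676 lower after median-of-ratios scaling and 1298 higher and 806 lower after quantile normalization. The median log2 fold change (LP over HP) of all genes tested was -0.18, and fold changes of the regulators are also given relative to it.

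The MYB3R-1-like gene and both SCL28-like genes had lower levels in LP nodules, at 0.401, 0.293 and 0.322 of their HP means, whereas the CDK inhibitor gene had a mean in LP nodules 1.98 times that in HP nodules. For each of the 4 genes the LP and HP libraries did not overlap. Over all genes tested, 44.5% had no overlap, 33.4% with the LP libraries below and 11.1% with the LP libraries above. Of the 4 genes, 3 passed the thresholds, all lower at LP, and 7.73% of all genes tested did so, 4.39% lower and 3.34% higher at LP. The genes were chosen on this contrast, so nothing is read from these counts. In RNA of whole nodules, fewer dividing cells and less RNA per dividing cell cannot be told apart.

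**Figure D1:**
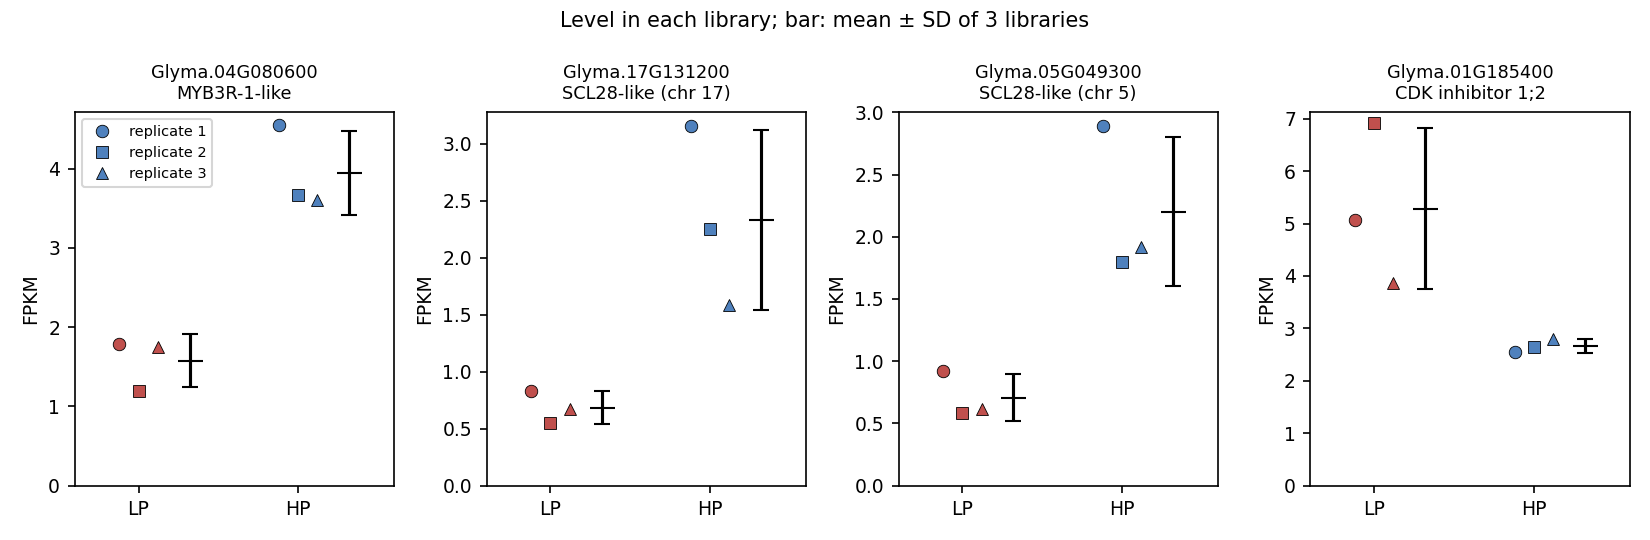
Level in FPKM (vertical axes, from 0, each with its own scale) of the 4 regulators in the 3 LP libraries (red) and the 3 HP libraries (blue), with circles, squares and triangles for replicates 1, 2 and 3 and bars for the mean ± SD of 3 libraries. The MYB3R-1-like gene and both SCL28-like genes lie lower in every LP library than in any HP library, and the CDK inhibitor 1;2 gene lies higher, with LP values of 3.86 to 6.92 FPKM against HP values of 2.54 to 2.80 FPKM.

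Glyma.04G080600 lies on the plus strand of chromosome 4 at 6773967 to 6780762 in the Wm82.a2.v1 assembly, a span of 6796 bases with a gene model of 3622 bases. Its protein matches MYB3R-1, a transcription factor with repeated MYB domains. Its level was 1.79, 1.19 and 1.75 FPKM in LP nodules, against 4.55, 3.67 and 3.61 FPKM in HP nodules. All 3 LP libraries were low, LP replicate 2 the lowest, and the lowest HP library had more than any LP library. The means were 1.58 ± 0.337 FPKM at LP and 3.94 ± 0.531 FPKM at HP (SD, n = 3 each). The log2 fold change was -1.28 with a standard error of 0.20, or -1.10 relative to the median gene. These levels rest on 316 fragments at LP and 782 at HP, whose ratio at equal totals was 0.400 with a 95% counting interval of 0.350 to 0.456. This and the other counting intervals cover counting error only.

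Glyma.17G131200 lies on the plus strand of chromosome 17 at 10508320 to 10511779, with a gene model of 3313 bases, and matches scarecrow-like protein 28. Its level was 0.835, 0.546 and 0.670 FPKM in LP nodules, against 3.15, 2.26 and 1.58 FPKM in HP nodules. The HP libraries spread widely, replicate 1 having 190 fragments and replicate 3 having 98, yet the lowest of them stood above the highest LP library. The means were 0.684 ± 0.145 FPKM at LP and 2.33 ± 0.787 FPKM at HP (SD, n = 3 each), and the log2 fold change of -1.60 (standard error 0.29) was -1.42 relative to the median gene. Altogether 125 fragments at LP stood against 422 at HP, a ratio of 0.293 (95% counting interval 0.238 to 0.359).

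Glyma.05G049300, the other SCL28-like gene, lies on the plus strand of chromosome 5 at 4398234 to 4401872, with a gene model of 3540 bases. Its level was 0.925, 0.586 and 0.613 FPKM in LP nodules, against 2.89, 1.80 and 1.92 FPKM in HP nodules. Replicate 1 was the highest library in both treatments, a number that the labels do not tie to a shared batch. The means were 0.708 ± 0.188 FPKM at LP and 2.20 ± 0.598 FPKM at HP (SD, n = 3 each), and the log2 fold change was -1.50 (standard error 0.27), or -1.32 relative to the median gene. The 138 fragments at LP and 427 at HP gave a ratio of 0.320 (95% counting interval 0.262 to 0.388).

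Glyma.01G185400 lies on the plus strand of chromosome 1 at 52082706 to 52084812, with a gene model of 1492 bases, and matches a CDK inhibitor, a protein class that restrains the kinases driving the cycle. Its level was 5.07, 6.92 and 3.86 FPKM in LP nodules, against 2.54, 2.65 and 2.80 FPKM in HP nodules. The LP libraries were all high but spread over a wide range, whereas the HP libraries were nearly equal, with coefficients of variation of 29.1% at LP and 4.81% at HP. The means were 5.28 ± 1.54 FPKM at LP and 2.66 ± 0.128 FPKM at HP (SD, n = 3 each). The log2 fold change was 0.92 (standard error 0.21), just under the 2-fold threshold, and was 1.11 relative to the median gene. It depended on single libraries, being 0.71 without LP replicate 2, 0.89 without HP replicate 1 and 1.12 without LP replicate 3. With array weights and after median-of-ratios and quantile scaling it was 1.07, 1.11 and 1.06. The 437 fragments at LP and 218 at HP gave a ratio of 1.98 (95% counting interval 1.68 to 2.34).

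Among all genes tested, the log2 fold changes of Glyma.17G131200, Glyma.05G049300 and Glyma.04G080600 stood at percentiles 0.702, 0.933 and 1.94 from the lowest, and that of Glyma.01G185400 at percentile 95.3. In level, the regulators were weakly to moderately expressed. The SCL28-like genes stood at percentiles 5.88 (Glyma.17G131200) and 6.33 (Glyma.05G049300) of the mean level at LP, against 25.0 and 23.6 at HP. The MYB3R-1-like gene stood at percentile 19.3 at LP, against 38.5 at HP, and the inhibitor gene at 50.4 at LP, against 28.1 at HP. The median level of a tested gene was 5.22 FPKM at LP and 5.74 FPKM at HP.

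**Figure D2:**
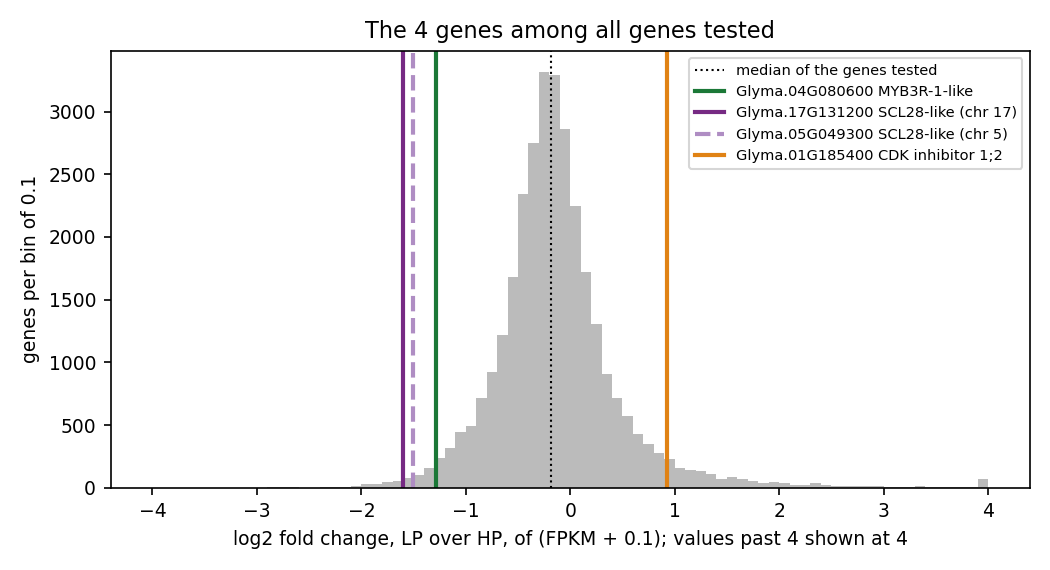
Number of genes (vertical axis, per bin of 0.1) by log2 fold change, LP over HP, of FPKM + 0.1 (horizontal axis) for the 31181 genes tested, values past 4 in size being drawn at 4. Vertical lines mark the 4 regulators at -1.60, -1.50, -1.28 and 0.92, and the dotted line the median of all genes at -0.18. The MYB3R-1-like and SCL28-like genes stand in the lower tail and the CDK inhibitor gene on the upper shoulder.

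The levels of the SCL28-like genes were also set against each other within each library, a comparison that did not enter their choice. Glyma.17G131200 supplied 47.4%, 48.2% and 52.3% of the summed level of both genes in LP nodules, against 52.2%, 55.7% and 45.2% in HP nodules. It was the higher of the pair in 3 of 6 libraries. The mean log2 ratio of Glyma.17G131200 over Glyma.05G049300 was 0.01 ± 0.21 (SD, n = 6 libraries), and no difference was found by an exact two-sided sign-flip permutation test (p = 0.906, where the smallest p that 6 libraries allow is 0.03125). A miss of the threshold does not show equal levels, and the ratio in single libraries ranged between 0.825 and 1.26. Together both genes gave 1.76, 1.13 and 1.28 FPKM in LP nodules, against 6.04, 4.05 and 3.50 FPKM in HP nodules. Fragments that match both genes could have been split between them, since their handling is not stated in the sources used here.

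The ratio of the MYB3R-1-like gene to the inhibitor gene, both in FPKM, was 0.354, 0.172 and 0.454 in LP nodules, against 1.79, 1.38 and 1.29 in HP nodules. The inhibitor had the higher level of both in every LP library and the lower level in every HP library. Both genes were chosen with their difference between P treatments already known, so this split by treatment is a description and no further result.

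Within a treatment, the regulators also differed from library to library. LP replicate 2 had the lowest values of the MYB3R-1-like gene and of both SCL28-like genes, with log2 deviations of -0.36, -0.26 and -0.21 from their LP means, and the highest value of the inhibitor gene, with a deviation of 0.42. HP replicate 1 had the highest values of the same 3 genes, with deviations of 0.21, 0.47 and 0.41 from their HP means. In that library the inhibitor gene deviated by -0.06. The SCL28-like genes lay on the same side of the treatment mean in 5 of 6 libraries. The MYB3R-1-like gene shared its side with Glyma.05G049300 in 5 and with Glyma.17G131200 in 4. The inhibitor gene shared its side with the MYB3R-1-like gene in 1, with Glyma.17G131200 in 1 and with Glyma.05G049300 in 2. Shares over other pairs of genes were not counted. The median deviation of the 43 tested genes in lists of other cell division genes was 0.14, -0.14 and 0.04 in the LP libraries and 0.21, -0.11 and -0.13 in the HP libraries. It was thus lowest in LP replicate 2 among the LP libraries and highest in HP replicate 1 among the HP libraries, as for the regulators that were lower at LP. Single lists departed from this. The median of the DNA replication list was highest in LP replicate 2 (0.16) and lowest in LP replicate 3 (-0.28). That of the histone list was higher in HP replicate 2 (0.21) than in HP replicate 1 (0.04). The remaining cell division lists with tested genes followed the pooled median in both respects. Medians over all genes tested are not given here.

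**Figure D3:**
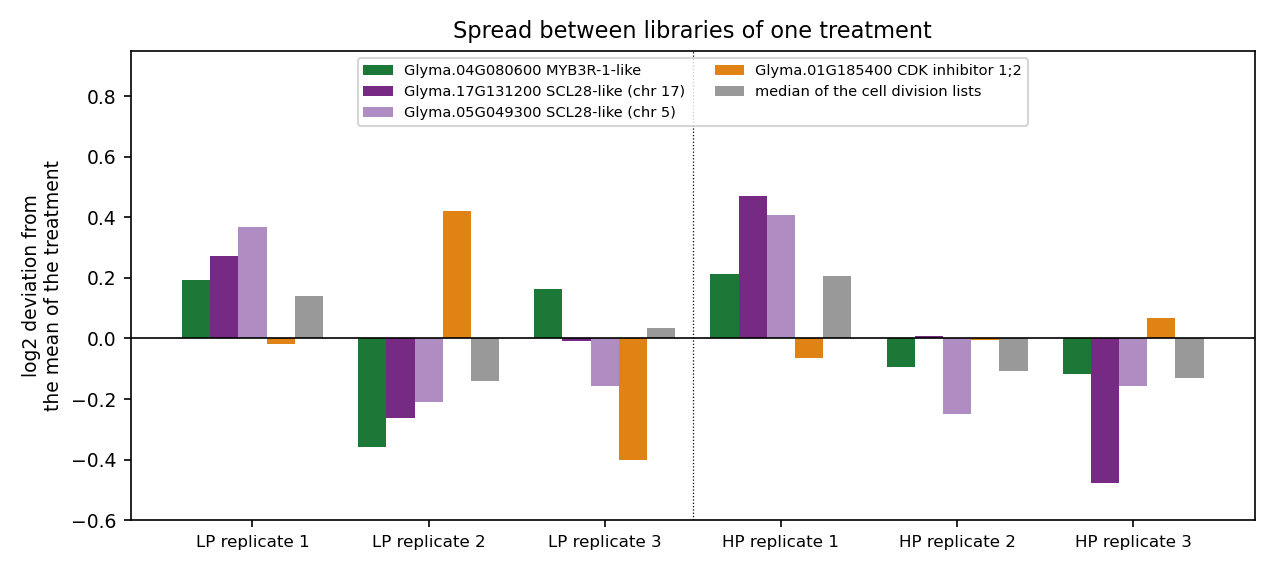
Deviation of log2(FPKM + 0.1) from the mean of the treatment (vertical axis) in each LP library (left) and each HP library (right) for the 4 regulators (green, purple, light purple, orange) and for the median of 43 other cell division genes (grey). The MYB3R-1-like gene and both SCL28-like genes are lowest in LP replicate 2 among the LP libraries and highest in HP replicate 1 among the HP libraries, and the inhibitor gene (orange) stands at 0.42 in LP replicate 2.

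The spread between libraries exceeded counting error for most of these values. The variance between libraries was 4.85 times (LP) and 4.73 times (HP) that of counting alone for the MYB3R-1-like gene, and 1.86 times (LP) and 16.3 times (HP) for Glyma.17G131200. For Glyma.05G049300 it was 3.23 times (LP) and 10.5 times (HP). For the inhibitor gene it was 12.6 times (LP) and 0.170 times (HP), so its HP libraries agreed more closely than counting alone gives on average.

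The genes whose pattern over the 6 libraries was most like that of a regulator were ranked by Pearson's r of log2 values among 28141 tested genes whose mean reached 1 FPKM. These libraries form 2 treatments, so any gene with a steady difference has a high r, and r exceeded 0.95 for 1117 genes with Glyma.04G080600, 868 with Glyma.17G131200, 1087 with Glyma.05G049300 and 156 with Glyma.01G185400. Nearest to the MYB3R-1-like gene was Glyma.07G096500 (r = 0.9996 over 6 libraries), a NACK1-like kinesin, whose tobacco namesake is needed for building the cell plate. It had 0.981 ± 0.289 FPKM in LP nodules and 3.36 ± 0.509 FPKM in HP nodules (SD, n = 3 each). Glyma.17G114800, Glyma.09G282800, Glyma.16G003200 and Glyma.09G230900 followed and have no description at hand. Nearest to Glyma.17G131200 was Glyma.07G084400 (r = 0.9995), followed by Glyma.19G221200, Glyma.14G187400, Glyma.12G233500 and Glyma.08G105900, none of them described.

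Nearest to Glyma.05G049300 was Glyma.06G024100 (r = 0.9993). Glyma.08G005200, Glyma.09G008800, Glyma.11G083600 and Glyma.07G014600 came next, of which Glyma.09G008800 matches an EH domain-containing protein and Glyma.11G083600 a DNA cytosine methyltransferase. Glyma.11G083600 had 0.617 FPKM in LP nodules and 1.67 FPKM in HP nodules on average. Nearest to the inhibitor gene was Glyma.06G138100 (r = 0.9989), with 37.1 FPKM in LP nodules and 20.6 FPKM in HP nodules on average. It was followed by Glyma.15G055700, Glyma.20G122800, Glyma.11G144600 (an EXO70B1-like exocyst subunit) and Glyma.02G129300 (a proline-rich receptor-like kinase).

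Other cell division genes could be collected only from the descriptions in the study's table, which lists genes that differed on these same libraries. Of 45 such genes besides the regulators, 43 were tested, 40 fell and 3 rose, with a median log2 fold change of -1.36 against -0.18 for all genes tested. Over all genes tested, 4.39% were called lower and 3.34% higher at LP. Each gene was listed because it differed, so these counts and medians, like those of the single lists, are a description of the listed genes. The same holds for the limma p-values of genes from this table, here and below, since they rest on the same libraries as that choice. Counts, medians and p-values of these genes are not independent evidence of a direction and say nothing of cell division genes outside the table. Of the 43, 5 reached the level minimum in HP libraries alone and so had to be lower at LP. Without HP replicate 1, where 38 of the 43 met the level minimum, 26 list genes were called lower. With a constant of 1 in place of 0.1 added before the logarithm, 14 were called lower. The only described vascular marker, Glyma.06G014800, a xylem cysteine proteinase, was also lower at LP. Its level was 0.297, 0.200 and 0.119 FPKM in LP nodules, against 0.910, 0.881 and 0.765 FPKM in HP nodules (log2 fold change -1.68, limma adjusted p = 0.0101). This marker too met the minimum in HP libraries alone, from 15 fragments at LP and 62 at HP, so its direction was fixed by that filter. Its part in the values of the cell division genes and regulators was not tested.

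The 9 listed cyclins and CDKs, all of them tested, fell, with a median log2 fold change of -1.40, and their summed level was 12.6, 8.91 and 10.1 FPKM in LP nodules, against 33.9, 30.2 and 27.4 FPKM in HP nodules. Glyma.03G123600, which matches the mitotic cyclin S13-6, had 2.09, 1.79 and 2.10 FPKM in LP nodules, against 6.74, 6.68 and 5.69 FPKM in HP nodules (log2 fold change -1.63, standard error 0.14, limma adjusted p = 0.000319). Glyma.14G224000, a CDK of the B2 type that is specific to plants and works around mitosis, had 3.58 ± 0.629 FPKM at LP and 9.28 ± 1.14 FPKM at HP (SD, n = 3 each). The A-type cyclin gene Glyma.06G116100 fell by 1.79 on the log2 scale. The cyclin-J18 gene Glyma.14G224300 had the largest difference of the list, -1.92, from 19 fragments at LP and 77 at HP. Its adjusted p was 0.037, and its call was lost in 9 of 15 alternatives. The adjusted p was 0.107, 0.0517, 0.102 and 0.0641 without HP replicate 1, HP replicate 2, HP replicate 3 and LP replicate 2, and 0.0559 to 0.0673 with the replicate block, a constant of 0.01, median-of-ratios or quantile scaling.

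The other described CDK inhibitor gene, Glyma.07G211300 (inhibitor 7-like), was under the level minimum and had 0.118 ± 0.0880 FPKM at LP and 0.595 ± 0.156 FPKM at HP (SD, n = 3 each). Its libraries read 0.0375, 0.212 and 0.105 FPKM in LP nodules, against 0.767, 0.556 and 0.462 FPKM in HP nodules. In a fit without the minimum it was lower at LP with a log2 fold change of -1.73 (limma adjusted p = 0.0169), on the opposite side of Glyma.01G185400, from 10 fragments at LP and 49 at HP. It was singled out after its values were seen. Both described CDK inhibitor genes were known to differ beforehand, so their opposite directions are a description and no result about the class.

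The described genes of exit from mitosis were 2, of which 1 was tested. Glyma.01G229600, a CDC20.1 cofactor of the anaphase-promoting complex, which marks mitotic proteins for breakdown, had 0.603, 0.474 and 0.589 FPKM in LP nodules, against 2.40, 1.79 and 1.50 FPKM in HP nodules (log2 fold change -1.59, limma adjusted p = 0.00402). A CDC20.1-like gene, Glyma.11G012400, was under the minimum, with 20 fragments at LP and 89 at HP. The 6 listed and tested DNA replication genes fell, with a median of -1.38. Among them were Glyma.14G082100 (origin recognition complex subunit 2, log2 fold change -1.41), Glyma.16G218700 (a subunit of DNA polymerase epsilon, -1.35) and Glyma.08G333800 (CDC6, which loads the replicative helicase, -1.58). The CDC6 gene is 1 of 2 genes of this list that met the level minimum in HP libraries alone, so their direction was fixed by that filter. Glyma.12G039200, an MCM4 subunit of the replicative helicase, changed by -1.47, and its adjusted p was 0.0161 with all libraries and 0.0639 without HP replicate 1.

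Of 13 tested genes of chromosome condensation and the spindle, 12 fell and 1 rose, with a median of -1.27. Among those that fell, 1 met the level minimum in HP libraries alone, so its direction was fixed by that filter. Glyma.06G088800, the Aurora-1 kinase gene, had 1.36, 1.44 and 1.58 FPKM in LP nodules, against 6.41, 5.57 and 4.64 FPKM in HP nodules (log2 fold change -1.85, standard error 0.17, limma adjusted p = 0.000367). Glyma.06G290300, which matches the spindle assembly factor TPX2, fell by 1.50. The gene that rose, Glyma.03G125300, matches a mitotic-spindle organizing protein, a small protein of microtubule-nucleating complexes, and had 4.52 ± 0.785 FPKM at LP and 1.93 ± 0.776 FPKM at HP (SD, n = 3 each). The log2 difference of 1.25 (adjusted p = 0.0166) missed the thresholds without HP replicate 1 (adjusted p = 0.0531) and without HP replicate 3 (log2 fold change 0.98). With a constant of 1 the log2 difference was 0.94, also under the 2-fold threshold.

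Of 7 tested cytokinesis genes, 6 fell and 1 rose, with a median of -1.34. Among those that fell, 2 met the level minimum in HP libraries alone, so their direction was fixed by that filter. Glyma.16G151200, which matches KNOLLE, the syntaxin that fuses vesicles at the forming cell plate in Arabidopsis, had 1.70 ± 0.137 FPKM at LP and 5.72 ± 1.12 FPKM at HP (SD, n = 3 each, log2 fold change -1.68). The NACK1-like kinesin Glyma.07G096500 fell by 1.71. Glyma.17G038700, described as a phragmoplast orienting kinesin, had 18.6 ± 2.78 FPKM at LP and 9.33 ± 3.13 FPKM at HP (SD, n = 3 each). It rose by 1.04 on the log2 scale (adjusted p = 0.0232). That call was lost without HP replicate 1, HP replicate 2, LP replicate 1 and LP replicate 2, where log2 fold changes were 1.09, 0.76, 0.93 and 1.02 with adjusted p of 0.0568, 0.0214, 0.068 and 0.0724. The call was also lost with a constant of 1 (log2 fold change 0.96) and with array weights (0.97).

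Of 7 tested histone genes, 6 fell and 1 rose, with a median of -1.38. Glyma.08G245000, Glyma.12G055200 (histone H3) and Glyma.13G342000 fell by 1.36, 1.52 and 1.52 on the log2 scale. Core histones are made mainly while DNA is replicated. The gene that rose, Glyma.11G075500, is an H1-like linker histone and had 105.4, 105.1 and 98.4 FPKM in LP nodules, against 38.8, 64.4 and 40.4 FPKM in HP nodules (log2 fold change 1.14, standard error 0.19, limma adjusted p = 0.00534). The summed level of all 45 cell division genes, this one included, was 198, 180 and 183 FPKM in LP nodules, against 238, 251 and 204 FPKM in HP nodules.

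Of other GRAS factors, the family of the SCL28-like genes, the table at hand described 3. All 3 were called higher at LP, with a median log2 fold change of 1.53, and having been listed for differing they stand for themselves and not for the family. Glyma.13G285400, a chitin-inducible gibberellin-responsive protein, had 25.9, 27.2 and 30.3 FPKM in LP nodules, against 14.5, 10.6 and 5.67 FPKM in HP nodules (log2 fold change 1.53, limma adjusted p = 0.0127). Its counterpart Glyma.12G137700 had 1.11, 2.36 and 3.15 FPKM in LP nodules, against 1.16, 0.550 and 0.360 FPKM in HP nodules. These libraries overlapped, the call was lost in 10 of 16 alternatives, and the adjusted p of 0.0461 lay between 0.111 and 0.132 without HP replicate 2, HP replicate 3, LP replicate 2 or LP replicate 3. Glyma.13G081700, a match to NSP2, a factor of nodule initiation in Medicago, had 0.624, 0.836 and 0.616 FPKM in LP nodules, against 0.288, 0.195 and 0.187 FPKM in HP nodules. Its log2 fold change was 1.30 with an adjusted p of 0.0212, and of 0.0566 without HP replicate 3. It met the level minimum in LP libraries alone, so its direction was fixed by that filter, and it could not be tested with an LP library left out.

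**Figure D4:**
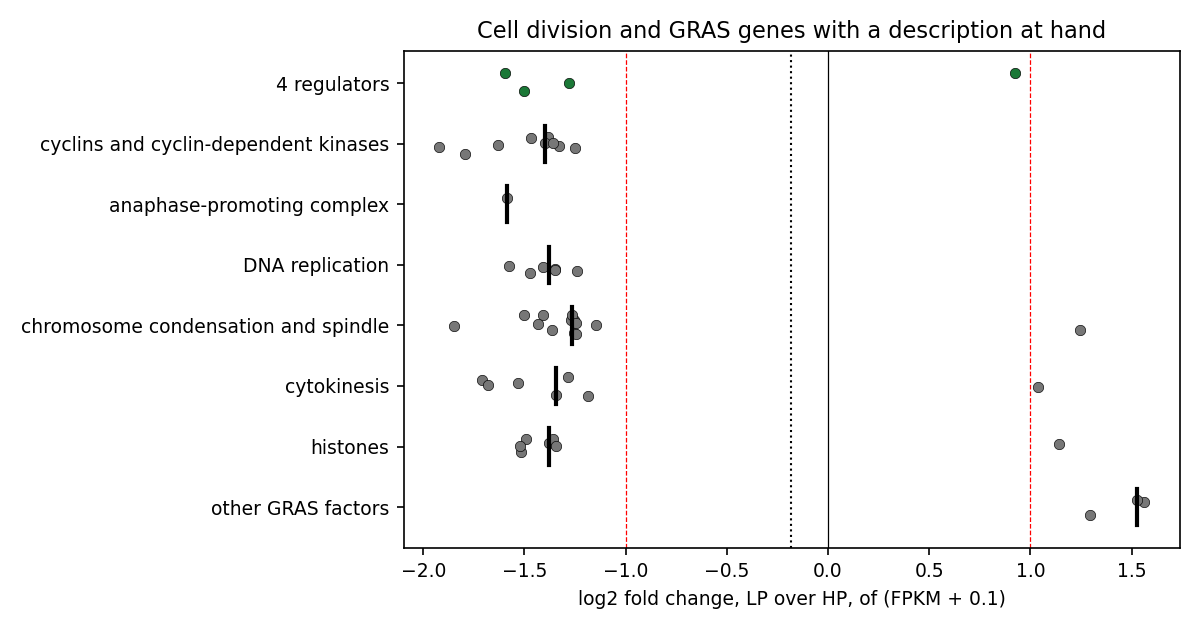
Log2 fold change, LP over HP, of FPKM + 0.1 (horizontal axis) for the 4 regulators (green) and for each tested gene of the cell division and GRAS lists (grey), with a thick bar at the median of a list, red dashed lines at 2-fold and a dotted line at the median of all genes tested, -0.18. Of 43 cell division genes 40 lie left of the lower line and 3 right of the upper one, and the 3 other GRAS genes lie on the right.

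Genes beside the regulators on the chromosome were counted as well. The 5 tested genes on either side of each of the 4 regulators, 40 in all, included 0 called genes by limma on FPKM and 0 by voom, against 7.73% of all genes tested. At an unadjusted p under 0.05 there were 15 of 40, where 39.7% of all genes tested reached it, and 12 of 40 passed by the adjusted p alone, 10 of them lower at LP, where 25.7% of all genes tested did. The log2 fold changes of the neighbours ranged between -0.90 and 0.82, with a median of -0.24. No listed gene overlapped a regulator. The nearest lay 1235 bases beyond the end of Glyma.04G080600 on the opposite strand, and it had 17.5 ± 2.39 FPKM at LP and 27.9 ± 3.73 FPKM at HP (SD, n = 3 each).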

How the data were processed

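Nodule RNA of 3 LP and 3 HP libraries was analysed, each from 2 pooled plants. According to the methods and labels, the authors aligned reads to Wm82.a2.v1 with HISAT2 2.1.0 on a Bowtie2 2.2.3 index, estimated abundance with Cufflinks and tested with DESeq2 1.6.3. The deposited unit is FPKM per gene and library, and genes absent from a library were taken as 0. Whole fragments were recovered from the FPKM values of all 39712 genes (relative tolerance 1e-06), as the smallest whole numbers that match the values, so the true numbers could be a multiple of them. Strand use and handling of shared reads are not given in the sources used here.

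Log2(FPKM + 0.1) was fitted with limma 3.58.1 (R 4.3.3, statmod 1.5.0, eBayes with trend and robust) over the 31181 genes reaching 0.5 FPKM in 3 libraries or more. Tests were two-sided, with p-values adjusted by Benjamini-Hochberg over these genes. They measure only the spread between these pools. Further steps used scipy 1.17.1, pandas 2.3.3, numpy 2.4.6 and matplotlib 3.10.9 in Python 3.11.15, and the code was tested on simulated data. Counting intervals (95%) compare fragment sums exactly.

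The regulators, lists and tests were chosen with earlier results of these data known. Lists came from words in the descriptions of 1764 genes in the part of the study's table at hand, whose fold changes and p-values were not used. Named were the regulators, their 5 most correlated genes and, in each list, the 2 called genes with the largest fold and the 2 of highest level. The untested list genes, the third GRAS gene and the nearest neighbour were singled out after their values were seen. Alternatives were constants of 1 and 0.01, no minimum or 1 FPKM, median-of-ratios, quantile, plain eBayes, array weights, a replicate block, each library left out and, chosen after seeing the data, voom on recovered fragments. Protein paralogs and a promoter motif were not analysed here, for want of sequences at hand.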

Additional observations from a re-analysis of the deposited data

How the results depend on the processing

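No fold change of the 4 regulators or of the 26 other genes followed through the alternatives reversed. Over 16 alternatives, the log2 fold change lay between -1.47 and -0.94 for Glyma.04G080600, between -1.86 and -0.96 for Glyma.17G131200, between -1.74 and -0.90 for Glyma.05G049300 and between 0.71 and 1.12 for Glyma.01G185400. The constant of 1, which compresses weakly expressed genes, left 0 of the 4 regulators past the thresholds (main 3), 14 list genes lower (main 40) and 1353 calls over all genes (main 2411), 602 of them lower (main 1370). With array weights, median-of-ratios or quantile scaling 4 regulators passed, beside 2767, 2080 and 2104 calls over all genes. Without LP replicate 3 also 4 passed, beside 2205 calls. The regulators were chosen on this contrast, so nothing is read from these counts. Lower calls numbered 676 with median-of-ratios and 806 with quantile scaling, and the share of calls that were higher was 67.5% and 61.7% there, against 43.2%. The shift of the median gene was -0.18 and became -0.0004 with median-of-ratios and -0.05 with quantile scaling. Leaving out 1 library gave 1876 to 2336 calls over all genes and 26 to 40 list genes lower, the lowest without HP replicate 1. The mean log2 ratio of the SCL28-like pair was -0.0495 to 0.0657 without 1 library. The sign-flip test cannot reach 0.05 with so few libraries, so only the ratio is given there. With all 6 libraries the sign-flip p was 0.8125 with a constant of 1 and 0.9062 with a constant of 0.01. The replicate block gave 2334 calls and 39 list genes lower. Deviations of same-numbered libraries correlated at 0.17, -0.0198 and -0.153, and those of differently numbered libraries at -0.185 to 0.195. Same-numbered libraries thus showed no closer likeness over all genes tested, and the labels do not state whether equal numbers share a batch. Of the 26 other genes, 12 lost their call in at least 1 alternative, 4 of them only with the constant of 1. The paralog comparison and its alternatives were not run, since no protein sequences were at hand. Among the regulators, depth limits the SCL28-like genes most, at 34 to 58 fragments per LP library.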

Other observations

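Expansins, proteins that loosen the cell wall during enlargement, did not share a direction among the 3 described genes. Glyma.10G122300, a putative expansin-B2, had 1.40, 1.95 and 2.31 FPKM in LP nodules, against 0.0545, 0.111 and 0.372 FPKM in HP nodules, and rose by 2.97 on the log2 scale (limma adjusted p = 0.00331). It met the level minimum in LP libraries alone, so its direction was fixed by that filter, and it could not be tested with an LP library left out. Glyma.12G022800, an expansin-like A2 gene, had 24.9 ± 4.06 FPKM at LP and 12.5 ± 5.62 FPKM at HP (SD, n = 3 each). Its adjusted p was 0.0388, and it was 0.055 to 0.123 without any 1 of the libraries other than HP replicate 2. Glyma.06G294600, an expansin-A16-like gene, had 0.533, 0.235 and 0.200 FPKM in LP nodules, against 1.35, 1.12 and 0.944 FPKM in HP nodules, with a log2 fold change of -1.62 (limma adjusted p = 0.0147, and 0.0592 without HP replicate 1 and 0.0519 without LP replicate 2).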
